A study of Homo sapiens with 6 samples.

Results

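The 54 genes described here encode the proteins that license replication origins and run the replication fork. They were taken by symbol from a list that was drawn up with earlier results of these data known, and the rule itself uses no measured value. The list holds the origin recognition complex (ORC1 to ORC6), the helicase loaders CDC6 and CDT1 with the loading inhibitor GMNN, the MCM helicase, its activators, the replicative polymerases, the sliding clamp PCNA and its loader, and the genes of nucleotide supply, fork protection and chromatin assembly. All 54 were among the 30327 genes of the count table and among the 15801 genes with enough reads to test. RNA was sequenced from SK-BR-3, an established HER2-positive breast cancer cell line, in 6 libraries. The control group (si_NC, 3 libraries) had received an siRNA without a target, and the treated group (si_GRB2, 3 libraries) an siRNA against GRB2, an adaptor protein that links receptor tyrosine kinases to RAS signalling. The study's methods print 1 siRNA sequence against GRB2, and the cells were transfected transiently. The time from transfection to RNA sequencing is not given in the sources used here. Nothing states whether the libraries came from separate cultures, so p-values measure only the spread between these libraries, which may be technical.

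The descriptions of the treated libraries say si_GRB2, whereas their titles and genotype label say that GRB2 was overexpressed, and the series' own text speaks of a plasmid. GRB2 itself had 123.9, 129.5 and 126 CPM (read counts scaled to a common library size, TMM-normalized) in si_NC and 27.8, 28.1 and 29.6 CPM in the libraries labelled si_GRB2, so every library labelled si_GRB2 was the lower one. Directions below follow the si_GRB2 label. Libraries held 24810378 to 28532480 reads on genes, of which 124921 to 159018 were on the 54 replication genes. Reads per gene over the 6 libraries ran from 769 (PRIM1) to 75078 (CDC6). Of the epithelial and HER2-region markers looked at, KRT8, KRT18, KRT19, EPCAM, ERBB2 and GRB7 were expressed in every library. CDH1, a general epithelial gene, was listed with them as a marker of this line, but it had 3 reads or fewer in each library. Of 10 markers of other cell types, 7 had too few reads to test, whereas ESR1 lay at 1.04 CPM, COL1A1 at 4.50 CPM and KRT5 at 17.1 CPM in si_NC. Several of these markers moved with the groups. In si_GRB2, KRT5 was at 8.43 CPM (log2 fold change −1.02), KRT18, EPCAM, KRT8, GRB7 and KRT19 fell by 0.55, 0.55, 0.41, 0.23 and 0.20 on the log2 scale and ERBB2 rose by 0.24, all with an adjusted p under 0.05 in edgeR. Their part in the results below was not tested.

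Replication is prepared in G1, when the origin recognition complex, CDC6 and CDT1 load the MCM2-7 helicase onto DNA as inactive double rings. In S phase, the kinase of CDC7 and DBF4 and the cyclin-dependent kinases turn these rings into active helicases by adding CDC45 and the GINS complex, and geminin (GMNN) prevents a further round of loading. Many of these genes are transcribed around the G1/S transition under E2F factors, which are released when cyclin D and its kinases phosphorylate RB proteins.

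The promoters are shown first because words of the E2F consensus are frequent in them. RefSeq promoters on GRCh38.p14, each of 300 bases from 250 before to 50 after the start of the gene, were given for 48 of the 54 genes. They were searched on both strands for 4 words of the E2F consensus, TTTCCCGC, TTTCGCGC, TTTGCCGC and TTTGGCGC, some of which overlap on opposite strands, as in MCM2 and MCM6. At least 1 word was found in 20 of 48 promoters (41.7%), against 5.36% of 10689 promoters of tested genes and 3.33% of all 27305 promoters. Within 60 bases of the start, 17 of 48 (35.4%) had a word, against 1.97% of the promoters of tested genes. The word was present in 4 of the 4 promoters given for MCM2-7 subunits and in 1 of 6 for the origin recognition complex. A CCAAT box, another common promoter element, was in 26 of 48 (54.2%), against 37.0% of tested genes' promoters. The windows below are 30 bases long, 5′ to 3′ on the strand of the gene, with the E2F word or its reverse complement in capitals. The first 8 belong to licensing and fork genes whose RNA was lower in si_GRB2, and the last 2 to genes that did not pass the test, so that both can be compared.
MCM2 (chr3:127598402-127598431, plus strand): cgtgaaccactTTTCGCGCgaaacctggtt
MCM3 (chr6:52284728-52284757, minus strand): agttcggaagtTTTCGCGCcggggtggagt
MCM6 (chr2:135876515-135876544, minus strand): cattggtcaggTTTGGCGCgaaatctccag
MCM7 (chr7:100101388-100101417, minus strand): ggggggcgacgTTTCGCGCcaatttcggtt
CDC6 (chr17:40287875-40287904, plus strand): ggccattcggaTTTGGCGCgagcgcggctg
CDT1 (chr16:88803743-88803772, plus strand): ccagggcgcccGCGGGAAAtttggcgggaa
PCNA (chr20:5126663-5126692, minus strand): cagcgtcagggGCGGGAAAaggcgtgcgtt
LIG1 (chr19:48170440-48170469, minus strand): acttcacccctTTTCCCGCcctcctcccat
ORC3 (chr6:87590112-87590141, plus strand): cgcgagggcgcGCGGGAAAtcccgagtgca
POLE2 (chr14:49688201-49688230, minus strand): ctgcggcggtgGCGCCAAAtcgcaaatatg

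A match to these letters is a description of the sequence and not a measured binding site. Among the promoters given, 16 of 30 genes called lower (53.3%) held a word, as did 4 of 18 genes not called (22.2%), namely ORC3, MCM8, POLE and POLE2. This split was looked at after the calls were known and was not tested.

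Levels were compared between genes in the authors' FPKM, which divides by a gene length that is not given. In si_NC, the highest were PCNA at 230.9 ± 4.32 FPKM (SD, n = 3), TK1 at 177 ± 8.96, MCM7 at 81.6 ± 4.57 and POLD2 at 80.8 ± 5.68, and 8 of the 54 genes reached 50 FPKM. MCM7 and POLD2 did not differ beyond their spread, nor did POLD2 and CDC6, at 77.5 ± 2.21 FPKM. At the other end, 15 genes were under 5 FPKM, with POLA1 the lowest at 1.52 ± 0.0777 and PRIM1 next at 1.61 ± 0.106 FPKM. The 6 MCM2-7 subunits, which form a ring with 1 copy of each, differed 10.3-fold in FPKM, from MCM5 at 7.90 ± 0.487 to MCM7 at 81.6. The median of the 54 genes was 10.4 FPKM. The order in FPKM depends on the length used. In si_NC, CDC6 had 513 CPM, TK1 406, PCNA 403 and RRM2 400. Their merged exons in GENCODE 44 hold 5311, 1845, 1403 and 9153 bases. The lowest in CPM was PRIM1 at 5.72 and not POLA1, which had 29.4 CPM and 15547 exon bases. MCM5 had 71.5 CPM and MCM7 445 CPM.

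**Figure D1:**
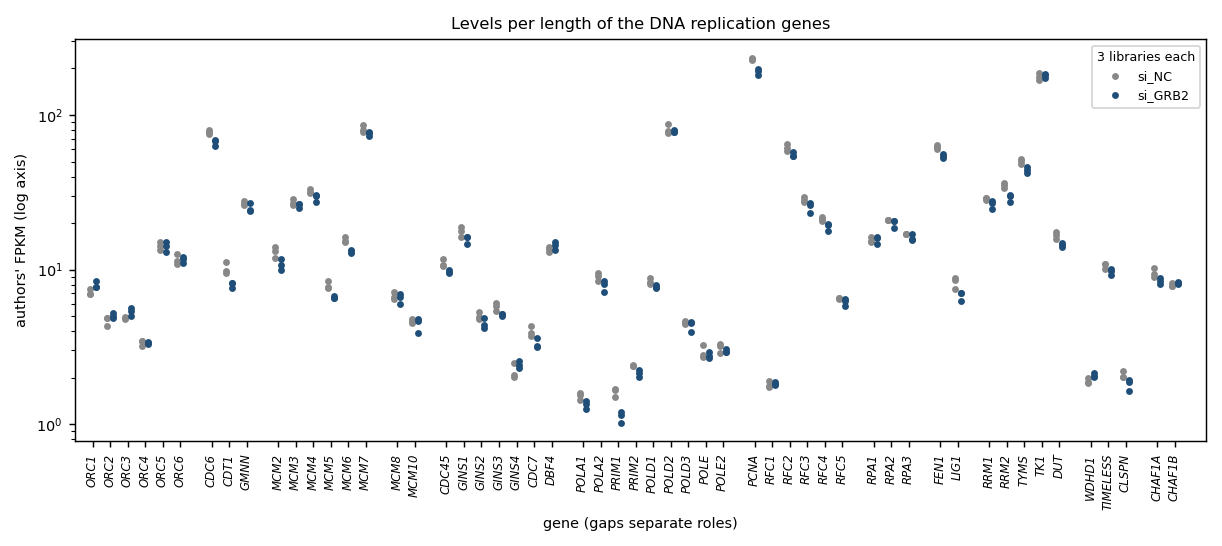
Levels of the 54 replication genes per gene length, in the authors' FPKM on a log axis, with 1 point for each of the 3 si_NC (grey) and 3 si_GRB2 (blue) libraries. PCNA and TK1 stand above the rest per gene length, though not in CPM, and the shift between groups is small beside the differences between genes.

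Replication genes were lower in si_GRB2 as a group, by small amounts. In edgeR's quasi-likelihood test, with p-values adjusted over all 15801 genes by Benjamini-Hochberg, 34 of 54 passed an adjusted p of 0.05 as lower and 0 as higher, whereas 15.5% of all genes tested were called lower and 15.2% higher (30.6% in either direction). DESeq2 also called 0 as higher, and at an unadjusted p under 0.05 in edgeR ORC1 was the single gene of the list on that side. Among the 10698 genes with at least the mean CPM of the lowest gene of the list, PRIM1, 20.2% were called lower and 20.6% higher. The median log2 fold change was −0.17, a fall of 11.2%, within a range of −0.57 to 0.10, against a median of 0.002 over all tested genes. None of the 54 reached a 1.5-fold difference in either direction, the fold limit of the study's methods. With an adjusted p under 0.01 beside it, where the methods name a p value, 1.69% of all genes met that limit as lower and 0.829% as higher (2.52% together). Of the 34 genes called, 3 fell by more than 20%, 26 by 10 to 20% and 5 by less than 10%. Calls were more frequent at higher levels. Of the 28 genes at or above 10 FPKM in si_NC, 22 were called, and of the 26 below it, 12. The part of level in which genes were called was not tested.

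**Figure D2:**
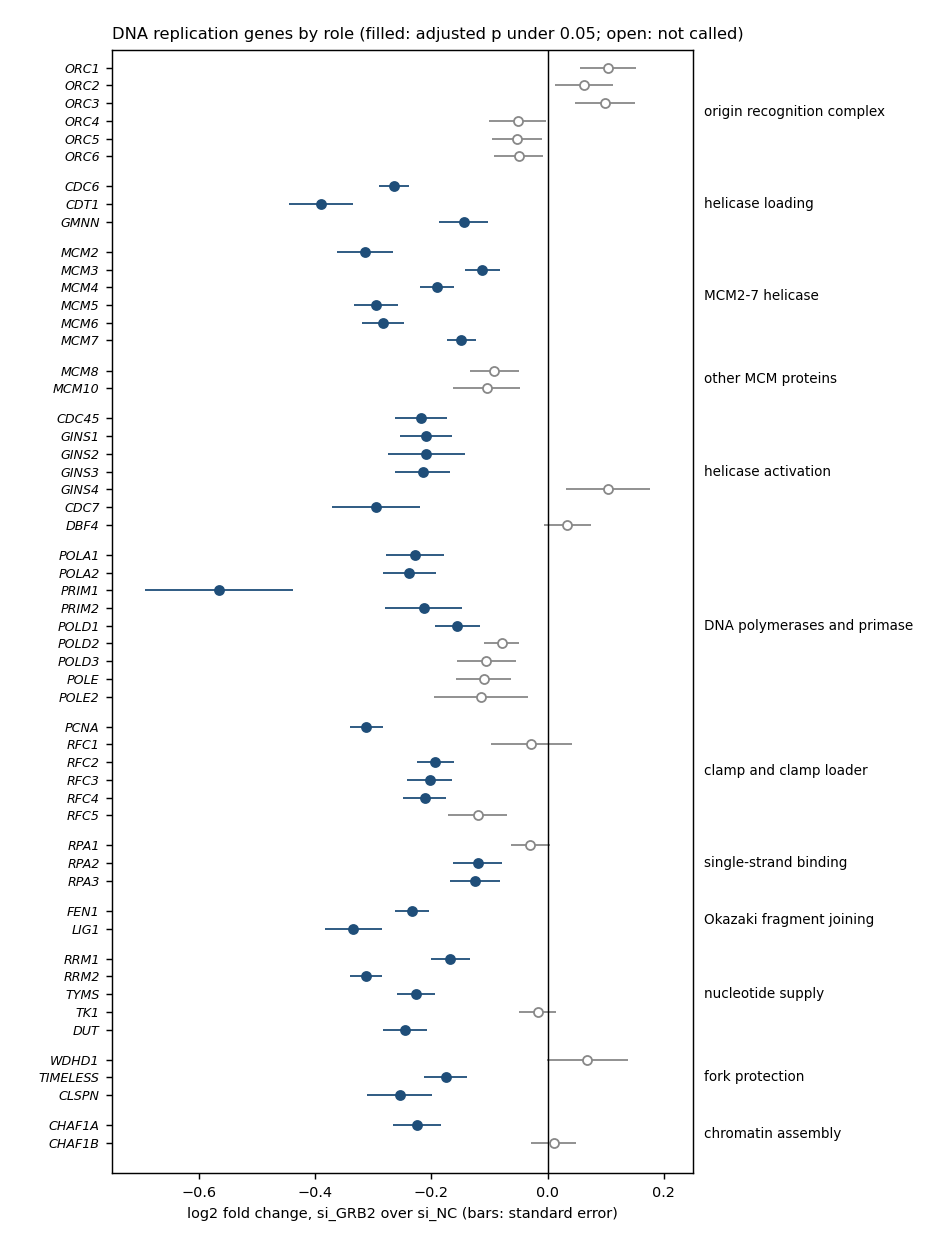
Log2 fold change of each replication gene, si_GRB2 over si_NC, with its standard error as a bar, grouped by role, filled where edgeR's adjusted p was under 0.05 and open where it was not. The 34 filled points all lie below 0, and the 6 genes of the origin recognition complex lie close to 0 on both sides.

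The groups were separate in most of these genes. All 34 genes called had 3 si_GRB2 values below the 3 si_NC values, and so did 4 genes not called (POLD2, POLD3, POLE and RFC5), while ORC1 and ORC3 had 3 values above. Over all tested genes, 21.2% showed no overlap as lower and 21.1% as higher (42.3% together). The median deviation of the 54 genes from their si_NC mean was −0.001, 0.01 and 0.01 on the log2 scale in the si_NC libraries and −0.19, −0.18 and −0.15 in the si_GRB2 libraries. Their share of all reads was 0.553 to 0.557% in si_NC and 0.504 to 0.515% in si_GRB2. These are bulk RNA values, so fewer cells in S phase and less of each RNA per cell cannot be told apart.

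**Figure D3:**
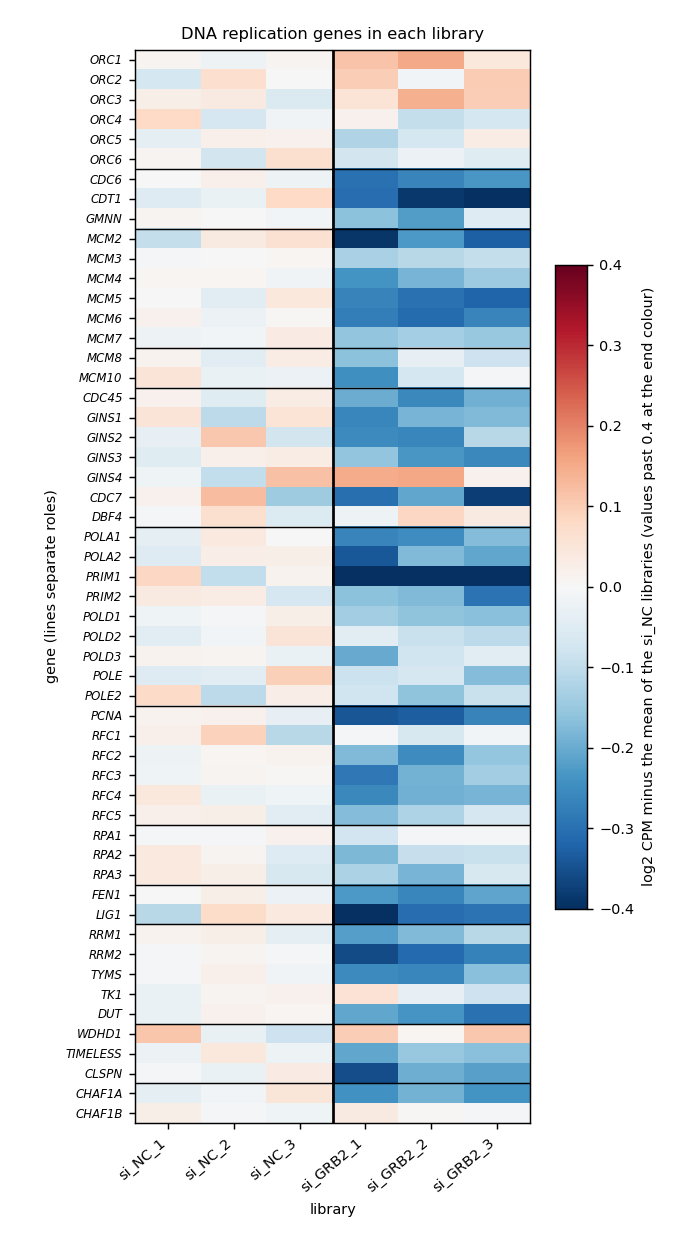
Deviation of each replication gene (rows, grouped by role) from its mean in si_NC, in log2 CPM, in each of the 6 libraries (columns). The si_GRB2 columns are blue, that is lower, in most rows, with medians of −0.19, −0.18 and −0.15. They are pale or red in rows such as ORC1 to ORC6, GINS4, DBF4, RFC1, RPA1, TK1, WDHD1 and CHAF1B.

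How many of these small falls passed depended on the scale set for each library and on the test. The method above placed 2396 of all genes higher and 2442 lower. Scaling by total counts alone placed 3447 higher and 1733 lower, and then 28 replication genes were called lower and 2, ORC1 and ORC3, were called higher. On the library scale of the authors' FPKM, an alternative chosen after seeing the data, 2468 genes were called higher and 1350 lower, with 22 replication genes lower and 0 higher. The calls lost there were those of GMNN, MCM3, MCM7, GINS2, GINS3, POLA1, PRIM2, POLD1, RPA2, RPA3, RRM1 and TIMELESS. Limma on log2(FPKM + 1) of genes with a mean FPKM of at least 1, which also changes the test, the transformation and the filter, gave 1702 higher and 987 lower, with 16 replication genes lower. All 34 genes kept their negative sign under each of the 17 alternatives run.

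The origin recognition complex, which marks origins through the cell cycle, had no gene called. MCM8 and MCM10 were not called either, but at −0.09 and −0.10 they lay near the called MCM3, at −0.11. Their standard errors were 0.04 and 0.06, against 0.03 for MCM3. The 6 log2 fold changes of the origin recognition complex lay between −0.05 and 0.10 (median 0.01). Summed over the 6 subunits, the level was 252, 249.98 and 255 CPM in si_NC and 249.8, 251 and 255 CPM in si_GRB2, so the groups overlapped. ORC1, the largest subunit, had a value of 0.10 on this scale (standard error 0.05, adjusted p = 0.122), as did ORC3 (standard error 0.05, adjusted p = 0.167). Both had 3 si_GRB2 values above the 3 si_NC values, and both passed as higher only with scaling by total counts alone (adjusted p = 0.024 and 0.036). ORC6 was at −0.05 in edgeR and changed sign with that scaling.

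The helicase loaders CDC6 and CDT1 fell, and so did the loading inhibitor GMNN, whose call was lost under 7 of the 17 alternatives. CDC6, an ATPase that works with the origin recognition complex in MCM loading, had 512, 520.2 and 506 CPM in si_NC and 417, 427 and 437 CPM in si_GRB2. Its groups did not overlap, and it fell by 16.8% (log2 fold change −0.26, standard error 0.03, adjusted p = 1.05e-06). CDT1, which brings the helicase to the origin, had 33.6, 34.2 and 36.8 CPM in si_NC and 28.2, 26.7 and 25.01 CPM in si_GRB2. The log2 fold change of CDT1 was −0.39 (standard error 0.05, adjusted p = 4.75e-05), which placed it after PRIM1 among the falls of the list. Geminin, the inhibitor that binds CDT1, had 83.3, 82.7 and 82.0 CPM in si_NC and 73.8, 70.8 and 79.8 CPM in si_GRB2, with the third si_GRB2 library close to si_NC. GMNN fell by 0.14 on the log2 scale (standard error 0.04, adjusted p = 0.0155). Without si_GRB2 replicate 1 or 2, GMNN no longer passed (adjusted p = 0.055 and 0.109).

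All 6 subunits of the MCM2-7 helicase, the ring that unwinds DNA ahead of the fork, were lower in si_GRB2. MCM2 (chromosome 3, 127598410 to 127622436, GRCh38) had 71.3, 78.0 and 79.4 CPM in si_NC and 58.1, 65.0 and 60.8 CPM in si_GRB2. MCM5 had 71.5, 69.3 and 73.6 CPM in si_NC and 59.4, 58.1 and 57.2 CPM in si_GRB2. MCM6 had 81.0, 78.7 and 80.3 CPM in si_NC and 66.0, 64.6 and 66.6 CPM in si_GRB2. None of these groups overlapped, and the log2 fold changes were −0.31 (standard error 0.05, adjusted p = 0.000119) for MCM2, −0.30 (standard error 0.04, adjusted p = 2.3e-05) for MCM5 and −0.28 (standard error 0.04, adjusted p = 1.55e-05) for MCM6. MCM4 had 281, 280.4 and 276 CPM in si_NC and 236, 245 and 252 CPM in si_GRB2. MCM7 had 439, 441 and 455 CPM in si_NC and 399, 405 and 401 CPM in si_GRB2. MCM3 had 123, 124 and 124 CPM in si_NC and 113, 115 and 116 CPM in si_GRB2. These falls were smaller, again without overlap, at −0.19 (standard error 0.03, adjusted p = 0.000105) for MCM4, −0.15 (standard error 0.03, adjusted p = 0.000284) for MCM7 and −0.11 (standard error 0.03, adjusted p = 0.00981) for MCM3. MCM3 was not called with scaling by total counts alone, and MCM3 and MCM7 were not called on the library scale of the FPKM. Outside the ring, MCM8, a repair helicase, and MCM10, a fork scaffold, had −0.09 and −0.10 and were not called. The value of MCM8 is uncertain, since 33.3% of its exon bases are shared with ENSG00000286235 on the same strand, whose reads equalled 133.6% of those on MCM8 and which had a log2 fold change of −0.19 (adjusted p = 0.00168).

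Summed over the 6 subunits, MCM2-7 had 1066, 1072 and 1089 CPM in si_NC and 932, 952 and 953 CPM in si_GRB2. A ratio of 2 sums within a library does not depend on the scale set for that library. The log2 ratio of summed MCM2-7 over summed ORC1-6 was 2.08, 2.10 and 2.10 in si_NC and 1.90, 1.92 and 1.90 in si_GRB2, a mean difference of −0.18. This ratio and the other ratios below were chosen after the values were seen, and are given with no test.

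**Figure D4:**
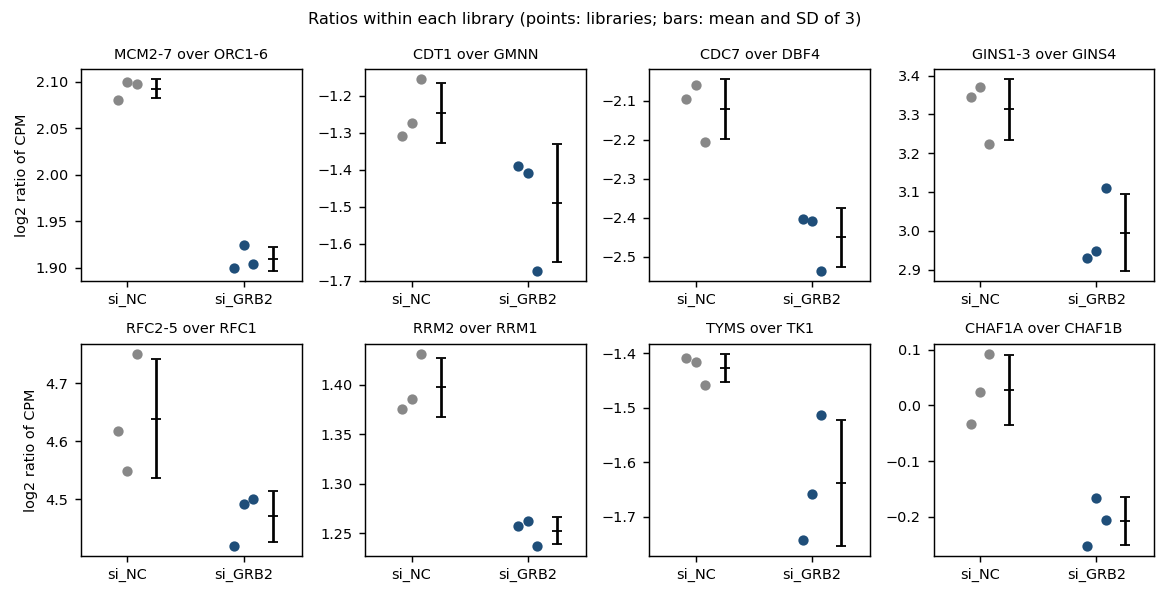
Log2 ratios of CPM between named replication genes or summed groups of them, within each library, with 1 point a library and the mean and SD of 3 libraries beside them (axes do not start at 0). In each of the 8 panels the 3 si_GRB2 points lie below the 3 si_NC points.

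Helicase activation split in a similar way, with 5 of 7 genes lower. CDC45, the factor that joins MCM2-7 and GINS in the active helicase, had 41.2, 39.4 and 41.6 CPM in si_NC and 35.4, 34.0 and 35.6 CPM in si_GRB2. It fell by 0.22 on the log2 scale (standard error 0.04, adjusted p = 0.00122) with no overlap. CDC7, the catalytic subunit of the kinase that starts origins, had 18.01, 19.4 and 16.1 CPM in si_NC and 14.4, 15.4 and 13.7 CPM in si_GRB2. The groups lay close but apart, and CDC7 fell by 0.30 on the log2 scale (standard error 0.08, adjusted p = 0.00695). Its regulatory subunit DBF4, with 76.9, 80.8 and 74.4 CPM against 76.3, 81.8 and 79.3 CPM, was not called (log2 fold change 0.03). The log2 ratio of CDC7 over DBF4 was therefore 0.33 lower, from a mean of −2.12 to −2.45. In the GINS complex, a tetramer, GINS1, GINS2 and GINS3 had −0.21, −0.21 and −0.22, whereas GINS4 had 0.10 (standard error 0.07, adjusted p = 0.319) and was not called. The call of GINS2 was lost without si_NC replicate 2 (adjusted p = 0.115) or without si_GRB2 replicate 1 or 2 (0.0888 and 0.107). The log2 ratio of summed GINS1 to GINS3 over GINS4 had a mean of 3.31 in si_NC and 2.995 in si_GRB2, and the groups did not overlap.

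PRIM1, the catalytic subunit of primase, which makes the RNA primers, showed the largest fall of the list and had the fewest reads. It had 6.06, 5.34 and 5.78 CPM in si_NC, from 170, 136 and 162 reads, and 4.05, 3.46 and 4.11 CPM in si_GRB2, from 102, 95 and 104 reads. The groups did not overlap, and the log2 fold change of PRIM1 was −0.57 (standard error 0.13, adjusted p = 0.0029). The gene is on chromosome 12 (56730438 to 56752374, minus strand, GRCh38), and 15.1% of its exon bases in GENCODE 44 are shared with other genes of the same strand, NACA and ENSG00000285625. The reads on ENSG00000285625 equalled 96.8% of those on PRIM1, and its log2 fold change was −0.84 (adjusted p = 0.000152). How the authors' counting divided reads between overlapping genes is not given. Of the other genes looked at, those that share most of their exon bases on the same strand had few reads. NUSAP1, with 86.8% shared, had 7 reads or fewer in each library, and the overlapping ENSG00000285920 had 21746 over the 6 libraries. RNASEH2A, with 53.3% shared, had 21 reads or fewer, and THSD8 had 8334. The value of PRIM1 and its rank as the largest fall are uncertain to that extent.

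The canonical 3′ UTR of PRIM1, 135 bases long, also holds 1 match to bases 2 to 8 of the guide strand of the GRB2 siRNA printed in the study's methods, the 7 letters ACAGATC. The study's supplement lists further siRNAs against GRB2, and the matches given here hold only if the printed one was used for sequencing. CDC6, with a 3′ UTR of 2656 bases, is the other gene of the list with a match. That makes 2 of 54 genes (3.70%), against 8.12% of 12696 tested genes with a 3′ UTR, where the median length was 1295 bases and 968 among the 54. Both sites are printed because both genes were called lower, with 10 bases on either side and the match in capitals, on the strand of the gene in GRCh38.
PRIM1 (chr12:56731653-56731679, minus strand): gccttcaaccACAGATCaaatacttca
CDC6 (chr17:40302266-40302292, plus strand): ttgcaagtgtACAGATCtgtgtagagg

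The part of these matches in the falls of PRIM1 and CDC6 was not tested. No other gene of the list holds a match in its canonical 3′ UTR.

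The remaining polymerase genes moved less. Of the 9 polymerase and primase genes, 5 were called lower, and all 9 log2 fold changes were negative, although GENCODE shares 16.8% of the exon bases of POLA2 with a same-strand gene. The primase partner PRIM2 had −0.21, and the polymerase alpha subunits POLA1 and POLA2, which extend the primer, had −0.23 and −0.24. PRIM2 lost its call without si_NC replicate 1 or 2 (adjusted p = 0.0619 and 0.0658) or si_GRB2 replicate 3 (0.0905). Of the polymerase delta genes, the catalytic POLD1 fell by 0.16 on the log2 scale, while POLD2 and POLD3 were at −0.08 and −0.11 and were not called. POLD2 lay next to the threshold (adjusted p = 0.0527) and passed without si_NC replicate 1 (0.0193) or si_GRB2 replicate 1 (0.0377). The leading-strand polymerase genes POLE and POLE2 were both at −0.11 and not called, and POLE passed without si_NC replicate 1 (0.0442).

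PCNA, the sliding clamp that holds polymerases on DNA, had the highest FPKM of the list and a fall of 19.5%. It had 408, 408 and 395 CPM in si_NC and 318, 321 and 335 CPM in si_GRB2, with a wide gap between the groups. The log2 fold change of PCNA was −0.31 (standard error 0.03, adjusted p = 4.16e-07). In the clamp loader, the shared small subunits RFC2, RFC3 and RFC4 fell by 0.19, 0.20 and 0.21 on the log2 scale, RFC5 was at −0.12 and not called, and the large subunit RFC1 was at −0.03. The sign of RFC1 turned under 6 alternatives, total counts alone and the FPKM scale included. The mean log2 ratio of summed RFC2 to RFC5 over RFC1 was 4.64 in si_NC and 4.47 in si_GRB2.

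LIG1 and FEN1 finish Okazaki fragments, LIG1 by sealing the nick and FEN1 by removing the flap. LIG1 had 62.8, 71.3 and 69.6 CPM in si_NC and 51.3, 54.9 and 55.2 CPM in si_GRB2. The groups did not overlap, and LIG1 fell by 0.33 on the log2 scale (standard error 0.05, adjusted p = 7.33e-05). FEN1 fell by 0.23. Of the single-strand binding complex, RPA2 fell by 0.12 and RPA3 by 0.13, while RPA1, its large subunit, was at −0.03 and turned positive with total counts alone and in 4 analyses on the FPKM scale. The calls of RPA2 and RPA3 did not hold when libraries were left out. That of RPA2 was lost in 5 of 6 refits with 1 library left out (adjusted p = 0.0534 to 0.167) and that of RPA3 in 4 (0.0804 to 0.18).

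In nucleotide supply, 4 of 5 genes fell. RRM2, the regulated subunit of ribonucleotide reductase, had 398, 403 and 399 CPM in si_NC and 312, 323 and 332 CPM in si_GRB2. It fell by 0.31 on the log2 scale (standard error 0.03, adjusted p = 3.39e-07) with a wide gap, and its partner RRM1 fell by 0.17. DUT, which removes dUTP, had 74.8, 76.9 and 76.6 CPM in si_NC and 65.9, 64.6 and 61.9 CPM in si_GRB2. DUT fell by 0.25 on the log2 scale (standard error 0.04, adjusted p = 0.00011) with no overlap. Thymidylate synthase, TYMS, which makes dTMP by methylation of dUMP, fell by 0.23, whereas thymidine kinase, TK1, which makes dTMP from salvaged thymidine, was at −0.02 (adjusted p = 0.747) and was slightly positive under 6 alternatives. The mean log2 ratio of TYMS over TK1 was −1.43 in si_NC and −1.64 in si_GRB2, and that of RRM2 over RRM1 was 1.40 and 1.25. Of the exon bases of TYMS, 39.9% overlap ENOSF1 on the opposite strand, whose reads equalled 34.1% of those of TYMS with a log2 fold change of −0.14. Whether the counting used strand is not given.

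Of the fork protection genes, CLSPN, which carries the replication checkpoint signal to CHEK1, had 24.8, 24.5 and 25.5 CPM in si_NC and 19.5, 21.7 and 21.4 CPM in si_GRB2. It fell by 0.25 on the log2 scale (standard error 0.06, adjusted p = 0.00233) with no overlap. TIMELESS, a fork component, fell by 0.18, and WDHD1, which tethers polymerase alpha to the helicase, was at 0.07 and not called. In the histone chaperone CAF-1, the large subunit CHAF1A fell by 0.22 and the middle subunit CHAF1B was at 0.01. The log2 ratio of CHAF1A over CHAF1B was −0.03, 0.02 and 0.09 in si_NC and −0.25, −0.17 and −0.21 in si_GRB2. Thus DBF4, GINS4 and CHAF1B, each the protein partner of a gene that fell, were not called in the same libraries. All 3 share exon bases with other genes. DBF4 shares 3.16% with SLC25A40 on the opposite strand, which was called higher (log2 fold change 0.19). GINS4 shares 23.4% with 2 opposite-strand genes, at 0.43 and 0.12, and CHAF1B 1.74% with MORC3 on the same strand, at 0.14, none of them called. How reads were divided is not given, so these values are uncertain to that extent. Genes that fell share exon bases as well. MCM2 shares 23.6% with an opposite-strand gene at −0.35, not called, whose reads equalled 6.06% of those on MCM2. DUT shares 14.5% and GINS3 10.9% with opposite-strand genes that were not called. RPA3 shares 3.65% with UMAD1 on the opposite strand, at −0.53 (adjusted p = 2.34e-05, edgeR). ORC4, not called, shares 4.83% with ACVR2A, which was called higher at 0.31.

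The other genes of the pathway were read from a list of 38 further replication factors, of which 37 could be tested. Of these, 15 were lower and 2 higher, with a median log2 fold change of −0.10. LRR1, the ubiquitin ligase adaptor of helicase unloading, fell by 0.58, UHRF1, which brings DNMT1 to new DNA, by 0.35, and FBXO5, an inhibitor of the anaphase-promoting complex, by 0.31. Of the exon bases of LRR1, 17.6% overlap RPS29 on the opposite strand, which had 61594 reads and a log2 fold change of −0.15. The value of LRR1 is uncertain to that extent, since the use of strand is not given. POLD4, the small subunit of polymerase delta, rose by 0.23, and RBBP4, a histone-binding subunit of CAF-1 and of other complexes, rose by 0.16. Scaling by total counts alone gave 8 genes of this list lower, and the library scale of the FPKM gave 4.

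The E2F and RB factors themselves were called about as often as other genes or less. Of 13, 1 was lower, E2F2, an activator, at −0.24, and 2 were higher, the pocket proteins RBL2 at 0.22 and RBL1 at 0.14, with a median of 0.04. These shares, 7.69% lower and 15.4% higher, are not above the 15.5% and 15.2% of all tested genes. E2F1 and RB1 were both at −0.02 and not called. Without si_NC replicate 1, 0 of the 13 were called higher and 2 lower, and without si_NC replicate 2, si_GRB2 replicate 2 or si_GRB2 replicate 3, 1 was called higher. Of 11 genes of S phase entry, 6 were lower and 1 higher. With any 1 library left out, 4 to 5 of them were lower and 1 higher. CCND1, which encodes cyclin D1, had 276, 275 and 282 CPM in si_NC and 156, 156 and 150.1 CPM in si_GRB2, and fell by 0.85 on the log2 scale (standard error 0.03, adjusted p = 5.94e-12). The inhibitor CDKN1A fell by 0.72, CDK2, the kinase partner of cyclins E and A, by 0.23, and the inhibitor CDKN1B rose by 0.18. CCND1 and CDKN1A passed the 1.5-fold limit with an adjusted p under 0.01.

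Genes of mitosis, which peak after S phase, were lower as well. Of 15 tested, 13 were lower and 0 higher, at a median of −0.16, against the median of −0.17 for the 54 replication genes. PLK1, a mitotic kinase, fell by 0.29, CDK1 by 0.27 and CDC20, an activator of the anaphase-promoting complex, by 0.25. Without si_NC replicate 2, 8 mitotic genes were called, and on the library scale of the FPKM 5 were. These genes moved with the replication genes in the same libraries, and their part in the result was not tested.

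**Figure D5:**
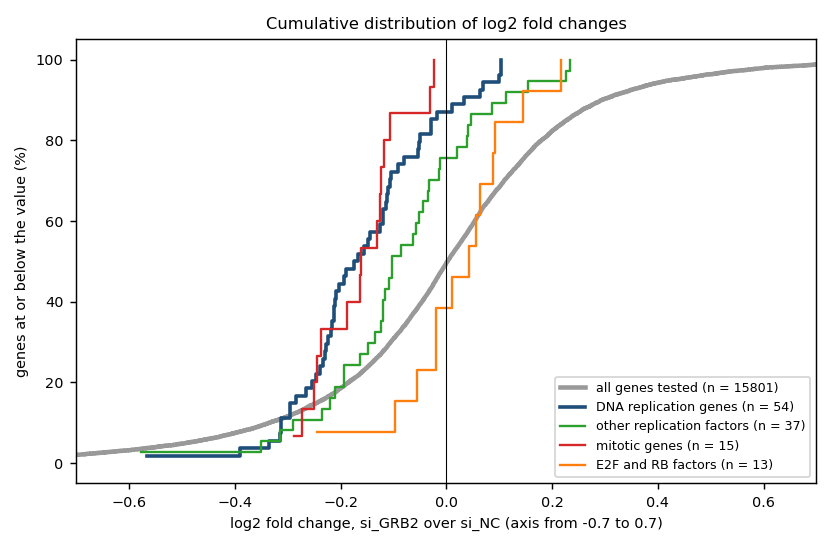
Cumulative share of genes (percent) at or below each log2 fold change, for all 15801 tested genes, the 54 replication genes, 37 other replication factors, 15 mitotic genes and 13 E2F and RB factors. The curves of replication and mitotic genes lie to the left, with medians of −0.17 and −0.16 against 0.002 for all genes, and that of the E2F and RB factors lies close to the curve of all genes at its median of 0.04.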

How the data were processed

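The authors trimmed the reads, aligned them to GRCh38 with HISAT2 and deposited the count of uniquely mapped reads per gene, not normalized. The authors also deposited FPKM, rounded and scaled by a total that is not given in the sources used here. The counting tool and its use of strand are likewise not given. The 54 genes, the other lists, the rule for named genes and the motifs were chosen with earlier results of these data known. Named genes were all 54 by role, with values in every library for the 12 largest called changes, MCM2-7, CDC6, CDT1, GMNN, CDC45 and PCNA, and the 3 largest called rises and falls of each other list.

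Counts were analysed in edgeR 4.0.16 under R 4.3.3. After filterByExpr, 15801 genes remained, TMM factors were computed, and glmQLFit and glmQLFTest compared the groups, without a covariate, with Benjamini-Hochberg adjustment over those genes. Called means an adjusted p under 0.05. Standard errors are the log2 fold change divided by the square root of F. FPKM were tested with limma 3.58.1 on log2(FPKM + 1), so folds of low genes are understated there. Alternatives also included DESeq2 1.42.0 and a block on replicate number. In simulated data on these 15801 genes, edgeR called 50% of 50 genes changed 1.2-fold and 76% of 50 changed 1.5-fold, and 3.66% of its calls were false. The simulation changed few genes, drawn at random over all depths, and gave every gene the same dispersion. In the data themselves, 30.6% of genes were called, so these rates do not carry over to the replication genes. Positions, overlaps and 3′ UTRs came from GENCODE 44, in which all 54 identifiers were found, 43 with the same version, and promoters came from RefSeq. The tables were made with pandas 2.3.3 and the figures with matplotlib 3.10.9.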

Additional observations from a re-analysis of the deposited data

How the results depend on the processing

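Of the 34 genes called lower, 29 stayed called with each library left out in turn, and all 34 kept their sign under 17 alternatives. Leaving out a library gave 30 to 34 replication genes called lower and 0 higher, and a median of −0.19 to −0.16 on the log2 scale. The ranges were 11 to 16 lower and 2 to 3 higher for the other replication factors, 1 to 2 lower and 0 to 2 higher for the E2F and RB factors, 4 to 5 lower and 1 higher for S phase entry, and 8 to 11 lower and 0 higher for mitotic genes. The E2F and RB rises were 0 without si_NC replicate 1 and 1 without si_NC replicate 2, si_GRB2 replicate 2 or si_GRB2 replicate 3. DESeq2 called 31 replication genes lower, 30 of them shared with edgeR, and 1 E2F and RB factor higher.

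With total counts alone, the median was −0.12, 2 replication genes were called higher, 8 other replication factors, 3 S phase entry genes and 6 mitotic genes were lower, and 4 E2F and RB factors and 2 S phase entry genes were higher. On the library scale of the FPKM, the median was −0.13, and 22 replication genes, 4 other replication factors, 3 S phase entry genes and 5 mitotic genes were lower. That scale differed from the TMM scale by 0.04 between the groups. Limma on log2(FPKM + 1) gave a median of −0.11 and called 6 replication genes, 2 other replication factors, 0 E2F and RB factors, 2 S phase entry genes and 1 mitotic gene lower, and 0 genes of these lists higher. With a pseudocount of 0.1, the values were −0.13 and 8, 3, 0, 2 and 1 lower, and again 0 higher. With a mean FPKM of at least 1, they were −0.11 and 16, 4, 3 and 4 lower for replication, other replication, S phase entry and mitotic genes, and 0 E2F and RB factors higher. A 1.5-fold limit with an adjusted p under 0.01 left 0 replication genes.

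Values that changed sign all belonged to genes not called and near 0. With total counts alone, ORC6 was 0.000207, RFC1 0.0221, RPA1 0.0208 and TK1 0.0331. On the library scale of the FPKM, RFC1 was 0.0163, RPA1 0.0143 and TK1 0.0247. In limma with a pseudocount of 1, with or without the limit on FPKM, RFC1 was 0.0123, RPA1 0.0129 and TK1 0.0254, and with a pseudocount of 0.1 these were 0.0184, 0.0136 and 0.0255. With each library left out, RFC1 ranged from −0.0887 (no si_NC replicate 3) to 0.0108 (no si_NC replicate 2), TK1 from −0.0561 (no si_GRB2 replicate 1) to 0.014 (no si_GRB2 replicate 3) and CHAF1B from −0.00448 (no si_NC replicate 3) to 0.0195 (no si_GRB2 replicate 3). CHAF1B was also below 0, at −0.00138, in the refit that dropped si_GRB2 replicate 1. The causes were not tested.

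Whether the replicate numbers pair the libraries is not stated. Same-numbered deviations correlated at 0.23, −0.09 and 0.08, and different-numbered ones at −0.28 to 0.23. With 3 libraries a group, these values cannot decide it. With a replicate block, 33 replication genes were called lower, 0 higher, with a median of −0.17, and RPA2 lost its call (adjusted p = 0.063, edgeR).

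Depth limits PRIM1 most, with 769 reads in 6 libraries. With 3 libraries a group, a gene that was not called is not shown to be equal in both, and how many of these falls passed, 6 to 35 over the alternatives at an adjusted p of 0.05, depended on the scale set for each library and on the test.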
